A study of Homo sapiens with 6 samples.

Results

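The ISG15 conjugation pathway was examined as a set of 7 genes in HK-2 cells, an established human kidney proximal tubule line. The genes were picked by name for their roles as modifier (ISG15), E1 activating enzyme (UBA7), E2 conjugating enzyme (UBE2L6), E3 ligases (HERC5 and HERC6) and proteases (USP18 and USP41). The set was chosen on the difference between shANXA2 and shCtrl libraries seen in an earlier look at these data, so that difference is given below as a description and supports nothing. All 7 were found among the 26899 genes listed, and 6 of them were among the 15299 genes with enough reads to be tested. The series compared 3 libraries labelled ANXA2 knockdown (shANXA2) with 3 labelled wild type (shCtrl). All 6 came from the same line, transformed with human papillomavirus 16, after transfection of plasmids by Lipofectamine 2000. The labels of the control libraries differ, as the titles and treatment name wild type cells and the descriptions shCtrl, so whether these cells carried a control hairpin is uncertain. The labels do not say how many hairpins were used, or whether the numbered replicates were separate transfections, so the spread between libraries may be technical.

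ISG15 is a small protein built like 2 ubiquitin units in a row. Interferon induces it, and an E1, E2 and E3 cascade parallel to that of ubiquitin attaches it to lysines of other proteins. USP18 removes it again and, bound to the interferon receptor chain IFNAR2 with the help of STAT2, also dampens interferon signalling. In human cells free ISG15 protects USP18 from degradation. Type I interferon acts on its target genes through the interferon-stimulated response element (ISRE) in promoters, and most genes of the pathway are known interferon targets.

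The 250 bases before the RefSeq start site were available for 4 members (GRCh38.p14), namely ISG15, HERC5, HERC6 and UBE2L6 with 2 start sites. UBA7, USP18 and USP41 had no entry. ISG15 and HERC5 are shown because both carry ISRE-type matches, while ISG15 had the largest estimate of the pathway and the groups of HERC5 overlapped. HERC6 is shown beside them as the neighbour of HERC5 with no match. Capitals mark matches to GAAANNGAAA on either strand. ISG15 lies at chr1:1013247-1013496, HERC5 at chr4:88456869-88457118 and HERC6 at chr4:88378602-88378851, each on the plus strand.
ISG15: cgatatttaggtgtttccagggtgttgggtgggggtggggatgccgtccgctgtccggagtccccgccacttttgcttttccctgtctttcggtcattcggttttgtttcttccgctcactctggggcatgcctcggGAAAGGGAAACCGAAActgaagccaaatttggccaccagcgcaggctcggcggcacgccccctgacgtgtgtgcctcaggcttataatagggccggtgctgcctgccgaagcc
HERC5: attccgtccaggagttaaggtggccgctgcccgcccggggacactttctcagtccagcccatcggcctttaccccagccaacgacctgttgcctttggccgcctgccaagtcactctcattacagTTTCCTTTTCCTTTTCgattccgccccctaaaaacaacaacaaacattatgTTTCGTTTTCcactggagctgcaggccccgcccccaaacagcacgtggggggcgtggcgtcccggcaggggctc
HERC6: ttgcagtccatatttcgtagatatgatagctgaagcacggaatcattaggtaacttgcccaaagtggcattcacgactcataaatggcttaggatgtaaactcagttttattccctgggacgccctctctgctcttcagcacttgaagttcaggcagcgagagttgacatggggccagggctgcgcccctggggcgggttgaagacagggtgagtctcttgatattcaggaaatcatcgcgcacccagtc

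The ISG15 window held 2 overlapping matches, between 113 and 98 bases before the start. In the HERC5 window there were 3 matches, an overlapping pair between 125 and 110 bases and a further match between 74 and 65 bases before the start. Neither HERC6 nor either UBE2L6 start site had a match. Among all 35116 windows of the same length, 3.02% held at least 1 match and 0.225% held 2 or more. Of 25 other interferon-stimulated genes on a list, 21 had a window and 14 of these held a match in at least 1 of their windows. This count is per gene, whereas the 3.02% is per window. The interferon-gamma type element TTCNNNGAA occurred in 6.57% of all windows and in none of the 5 member windows. A match is a run of letters and not a measured binding site.

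The targeted gene was compared first. ANXA2, a calcium-dependent membrane-binding protein, had 1538, 1561 and 1519 CPM (reads per 1e+06 reads of the library, TMM-scaled) in knockdown replicates 1, 2 and 3 and 1658, 1461 and 1675 CPM in control replicates 1, 2 and 3. The groups overlapped, and an exact permutation test, two-sided, gave p = 0.4 (smallest possible 0.1 with 3 against 3). The knockdown was therefore not seen in the transcript, and each group is named here only by its label. Libraries held 24231267 to 34561675 reads, and control replicate 1 stood apart on the first principal component (-61.8, against -13.7 to 26.4 for the other 5). Without it the log2 estimates given below became 1.63 for ISG15, 0.38 for UBA7, 0.50 for UBE2L6, -0.18 for HERC5, 0.24 for HERC6 and 1.15 for USP18. As to cell identity, PAX8, GGT1 and KRT8 were at high read counts, whereas LRP2 had 1 read and AQP1 had 4 reads over all libraries, and SLC22A6 and SLC22A8 were not listed, so several defining markers of differentiated proximal tubule were near absent. Of 10 leukocyte markers, 5 were not listed, PTPRC and CD3E among them, and the list summed to 3.33 to 5.74 CPM in the libraries labelled control and 4.22 to 7.14 CPM in those labelled knockdown. Their part in the results was not tested.

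ISG15 and USP18 had the largest estimates, 2.99-fold and 2.28-fold higher in the libraries labelled knockdown. UBE2L6 and UBA7 were 1.44-fold and 1.41-fold higher. The groups of the ligases HERC6 and HERC5 overlapped, with estimates on opposite sides of 0. In bulk RNA, more cells with a transcript and more of it per cell cannot be told apart. The median log2 fold change (libraries labelled knockdown over labelled control, edgeR) was 0.51 over the 6 tested members, against -0.0065 over all tested genes. The edgeR quasi-likelihood test called 0 of the 6 members past an adjusted p of 0.05, beside 0% of all 15299 genes (1251 at an unadjusted p under 0.05). DESeq2 called 2 of the 6, ISG15 and UBE2L6, beside 0.207% of 15424 genes.

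**Figure D1:**
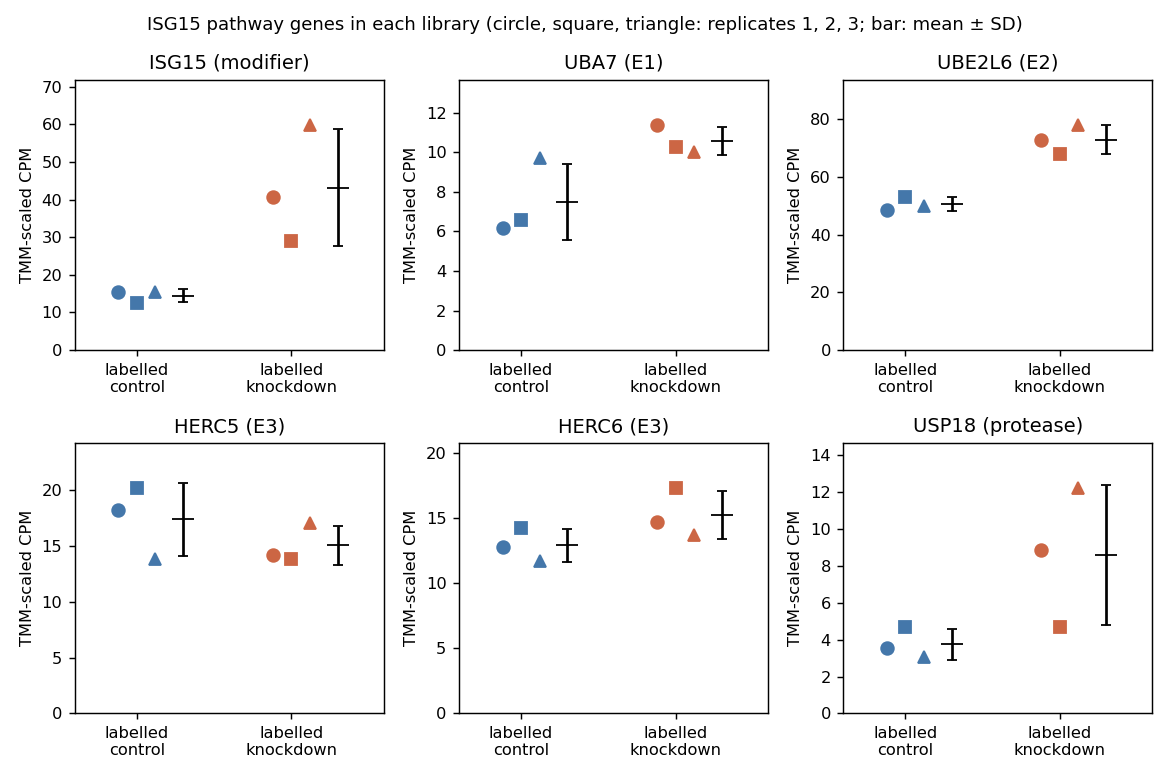
TMM-scaled CPM of the 6 tested genes in each library, with replicates 1, 2 and 3 as circle, square and triangle and the mean ± SD (n = 3) as a bar at the right of each group. ISG15, UBA7 and UBE2L6 are separated between the labels, USP18 meets at 4.66 and 4.68 CPM, and HERC5 and HERC6 overlap.

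The modifier was examined in each library. ISG15 (ENSG00000187608.8, chromosome 1 from 1001138 to 1014540, plus strand, GRCh38) was counted with 374, 405 and 484 reads in control replicates 1, 2 and 3 and 1391, 956 and 1728 reads in knockdown replicates 1, 2 and 3. After scaling these were 15.3, 12.4 and 15.5 CPM in the libraries labelled control and 40.8, 29.0 and 59.8 CPM in those labelled knockdown. Each library labelled knockdown lay above each labelled control, and the former spread 2.07-fold from lowest to highest against 1.25-fold in the latter. The means were 43.2 ± 15.6 CPM and 14.4 ± 1.76 CPM (SD, n = 3). By edgeR this was a log2 fold change of 1.58 (standard error 0.24, Benjamini-Hochberg adjusted p 0.16). ISG15 ranked 59 of 15299 by signed estimate, from most raised to most lowered, and 9 by unadjusted p, which covers both directions. DESeq2 gave an adjusted p of 9.31e-09 and edgeR without knockdown replicate 2, the lowest of its group, gave 0.0351, within a range of 4.06e-20 to 0.92 over 16 alternatives. The gene overlaps by 36 exonic bases a processed pseudogene on the opposite strand, which was not listed.

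The activating enzyme followed. UBA7 (ENSG00000182179.10, chromosome 3 from 49805209 to 49813953, minus strand) charges ISG15 at the expense of ATP. Its levels were 6.19, 6.58 and 9.73 CPM in the libraries labelled control and 11.4, 10.3 and 10.0 CPM in those labelled knockdown. The groups did not overlap, but control replicate 3 reached within a small distance of knockdown replicate 3. The means were 10.6 ± 0.72 CPM and 7.50 ± 1.94 CPM (SD, n = 3), or 0.49 on the log2 scale by edgeR (standard error 0.20, adjusted p 0.60). Without control replicate 3 the estimate was 0.73. UBA1, the main E1 of ubiquitin, was at 562 ± 30.9 CPM and 551 ± 28.1 CPM (SD, n = 3), with an estimate of 0.03 and a 95% interval from -0.16 to 0.21. UBA6, the other E1 that activates ubiquitin, had an estimate of -0.15 (standard error 0.12).

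The estimate for the conjugating enzyme rested on the most reads of the pathway, 1187 to 2479 per library. UBE2L6 (ENSG00000156587.15, chromosome 11 from 57551656 to 57568284, minus strand) receives ISG15 from UBA7. It had 48.7, 53.1 and 49.9 CPM in the libraries labelled control and 72.6, 68.0 and 78.0 CPM in those labelled knockdown. The gap between the groups exceeded the range within either. The means were 72.9 ± 5.04 CPM and 50.6 ± 2.29 CPM (SD, n = 3), or 0.53 on the log2 scale by edgeR (standard error 0.10, adjusted p 0.42, and 0.0234 by DESeq2). It ranked only 856 by signed estimate, from most raised to most lowered, but 18 by unadjusted p. UBE2L3, its closest relative, which serves ubiquitin, was at 256 ± 15.0 CPM and 257 ± 10.1 CPM (SD, n = 3), with an estimate of -0.01 and a 95% interval from -0.20 to 0.19. No window of 100 bases of UBE2L6 transcripts occurred in UBE2L3 transcripts.

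The ligases lie side by side on chromosome 4, HERC6 (ENSG00000138642.14) from 88378739 to 88443097 and HERC5 (ENSG00000138646.8) from 88457119 to 88506163, both on the plus strand and 14022 bases apart. HERC5 is the main ISG15 ligase of human cells, whereas HERC6 serves this role in mouse. HERC5 had 18.2, 20.2 and 13.8 CPM in the libraries labelled control and 14.2, 13.8 and 17.1 CPM in those labelled knockdown. The groups overlapped, with control replicate 3 at the level of knockdown replicate 2. The edgeR log2 fold change was -0.21 with a 95% interval from -0.60 to 0.18 (adjusted p 0.74). Without control replicate 2 the estimate was -0.09 and without control replicate 3 it was -0.35. HERC6 had 12.8, 14.2 and 11.7 CPM in the libraries labelled control and 14.7, 17.3 and 13.7 CPM in those labelled knockdown. Knockdown replicate 3 lay below control replicate 2, so these groups overlapped too. The edgeR estimate was 0.24 with a 95% interval from -0.11 to 0.59 (adjusted p 0.68), and 0.14 without knockdown replicate 2. In linear terms the HERC5 interval ended 13.4% above the control level, whereas that of ISG15 began 105% above it. The set was chosen on this contrast, so both bounds are a description only. The remaining HERC genes did not pass either. Estimates were 0.29 for HERC3, 0.11 for HERC1, 0.05 for HERC2 and -0.10 for HERC4.

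The proteases came last. USP18 (ENSG00000184979.9, chromosome 22 from 18150118 to 18177397, plus strand) was counted with 86, 153 and 95 reads in control replicates 1, 2 and 3 and 303, 154 and 353 reads in knockdown replicates 1, 2 and 3. These were 3.53, 4.68 and 3.05 CPM against 8.88, 4.66 and 12.2 CPM. Knockdown replicates 1 and 3 lay above all libraries labelled control, whereas knockdown replicate 2 matched control replicate 2. The means were 8.59 ± 3.79 CPM and 3.75 ± 0.84 CPM (SD, n = 3), or 1.19 on the log2 scale by edgeR (standard error 0.34, adjusted p 0.60, and 0.097 by DESeq2). USP41 (ENSG00000161133.16, chromosome 22 from 20363621 to 20377251, minus strand), a relative of USP18, was not tested. It had 1 read in knockdown replicate 3 and 0 in the other 5 libraries, where a count of 0 allows up to 0.0879 to 0.123 CPM, counting error only. Of the 100-base windows of its transcript, 37.9% also occur in USP18 transcripts, and 7.52% of USP18 windows occur in USP41. The handling of reads that match both was not stated, so the values of both are uncertain to that extent.

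**Figure D2:**
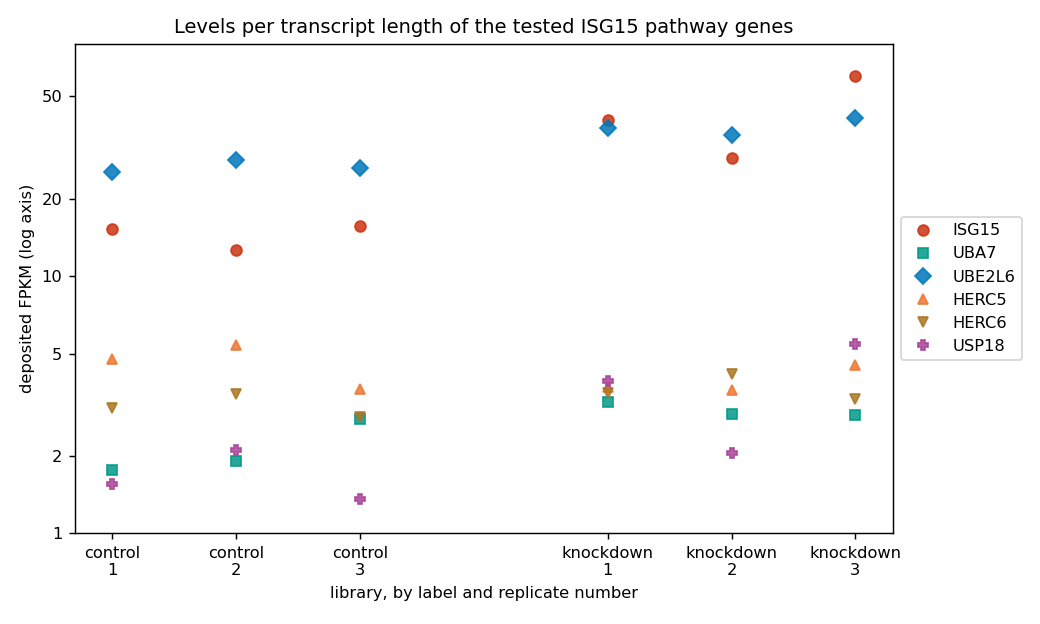
Deposited FPKM values (log axis) of the 6 tested genes in each library, by label and replicate number. UBE2L6 is the highest of the 6 in each library labelled control and in knockdown replicate 2, and ISG15 is the highest in knockdown replicates 1 and 3.

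Levels between genes were compared per transcript length, with the FPKM values of the authors. In the libraries labelled control the mean order was UBE2L6 at 26.7 ± 1.48 FPKM, ISG15 at 14.5 ± 1.65, HERC5 at 4.60 ± 0.89, HERC6 at 3.13 ± 0.33, UBA7 at 2.15 ± 0.56 and USP18 at 1.68 ± 0.39 (SD, n = 3). UBE2L6 and ISG15 did not overlap each other or any other member, whereas the neighbours UBA7 and USP18 overlapped. In the libraries labelled knockdown ISG15 was at 43.1 ± 15.9 FPKM and UBE2L6 at 38.1 ± 2.88, and their ranges overlapped. The lower 4 were HERC5 at 3.93 ± 0.49, USP18 at 3.80 ± 1.70, HERC6 at 3.66 ± 0.43 and UBA7 at 3.01 ± 0.19 FPKM, where USP18 alone spanned the levels of the other 3. Modifier and conjugating enzyme thus came to similar levels, as the FPKM ratio of ISG15 to UBE2L6 was 0.60, 0.44 and 0.59 in the libraries labelled control and 1.07, 0.81 and 1.46 in those labelled knockdown. The ratio of ISG15 to HERC5 was 3.22, 2.34 and 4.29 against 10.9, 7.99 and 13.4. By contrast, the ratio of ISG15 to USP18 overlapped between the labels, at 9.81, 5.98 and 11.5 against 10.4, 14.0 and 11.1, as did that of UBE2L6 to UBA7, at 14.5, 14.9 and 9.43 against 11.7, 12.1 and 14.3.

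The separation of the groups was counted over the members. In 3 of the 6 tested members (ISG15, UBA7 and UBE2L6) each library labelled knockdown lay above each labelled control, beside 7.94% of all tested genes, and 0 members were separated in the other direction, beside 7.7% of all tested genes. Since the members were chosen on this contrast, nothing is read from the count. USP18 was also separated with upper-quartile scaling or without knockdown replicate 2, and HERC6 without knockdown replicate 3. Without control replicate 2 the count was 5, with both of them added. In the other direction, HERC5 was separated with all libraries labelled knockdown lower when control replicate 3 was left out. Within the libraries labelled knockdown, ISG15, UBE2L6, USP18 and HERC5 were highest in replicate 3 and lowest in replicate 2. UBA7 was highest in replicate 1 and HERC6 in replicate 2, and both were lowest in replicate 3. The order of replicates 3, 1 and 2 from high to low held for 4 of 6 members, 18 of 24 tested genes of the list of other interferon-stimulated genes and 25% of all tested genes. That list had a median log2 fold change of 1.19, with 23 of 24 estimates above 0, and IFI27 (2.83) and IFI6 (2.82) had the largest. Of its 24 tested genes 17 were separated with the libraries labelled knockdown higher and 0 with them lower, beside 7.94% and 7.7% of all tested genes. ISG15 lay above the median of that list and USP18 level with it, whereas UBE2L6, UBA7, HERC6 and HERC5 lay below it.

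**Figure D3:**
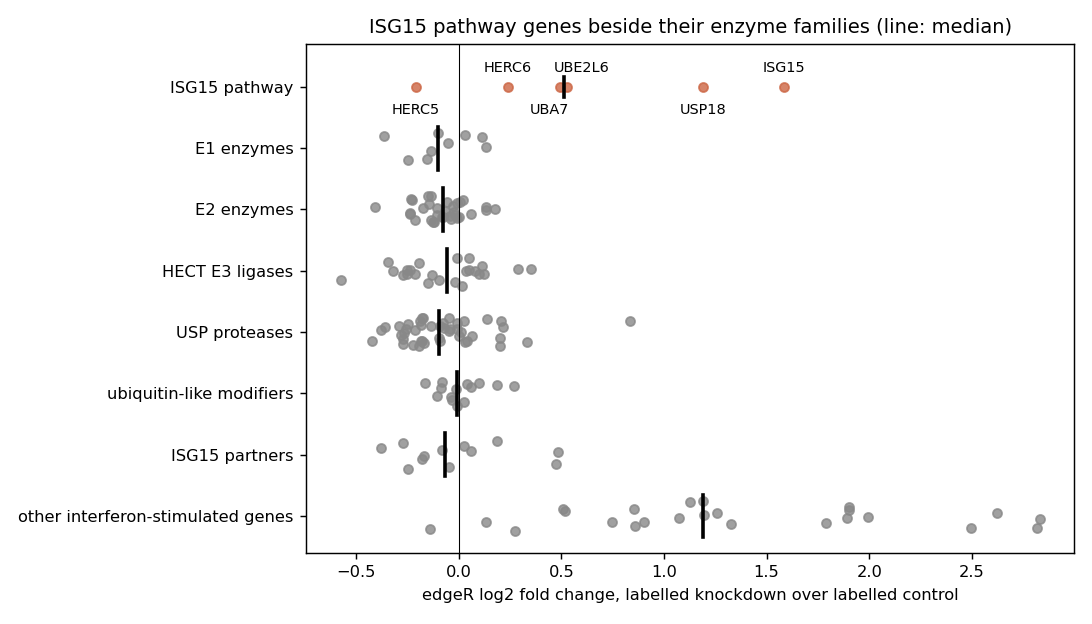
edgeR log2 fold changes of the tested members and of the tested genes of 7 lists, with 1 point per gene and a line at each median. The enzyme family medians lie between -0.10 and -0.06, the members spread from -0.21 (HERC5) to 1.58 (ISG15), and the other interferon-stimulated genes have a median of 1.19.

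The enzymes of ubiquitin and related modifiers were set beside the members. Over 110 tested E1, E2, HECT and USP genes outside the pathway the median log2 fold change was -0.09. In edgeR 0 passed an adjusted p of 0.05 in either direction. At an unadjusted p under 0.05 there were 7 (6.36%), beside 8.18% of all tested genes. In 5 of the 110 (4.55%) the libraries labelled knockdown all lay higher, beside 7.94% of all tested genes. In 10 (9.09%) they all lay lower, beside 7.7% of all tested genes. Of 9 E1 genes, NAE1 of the NEDD8 pathway (-0.36) and UBA2 of the SUMO pathway (-0.25) had the largest estimates. Among 33 E2 genes these were UBE2G1 (-0.41) and UBE2K (-0.24), and among 24 HECT ligases HECW2 (-0.58) and HECTD3 (0.35). Of 44 USP genes, USP19 (0.83, standard error 0.58) and USP34 (-0.42) differed most. None of these passed the test.

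Proteins that act with ISG15 or USP18 were followed in the same way. Of 13 listed partners 12 were tested and 0 passed in either direction by edgeR (adjusted p 0.599 to 0.951), with a median log2 fold change of -0.07. TRIM25, a ligase that can attach ISG15, averaged 130 ± 14.1 CPM under the knockdown label and 93.0 ± 6.75 CPM under the control label (SD, n = 3), an estimate of 0.48 with a standard error of 0.11. STAT2, which recruits USP18 to the receptor, was at 22.3 ± 4.33 CPM and 16.0 ± 2.39 CPM (SD, n = 3), an estimate of 0.48 with a standard error of 0.18. For both, each library labelled knockdown lay above each labelled control, whereas USP14, a proteasome-bound protease, was separated in the other direction. These were 2 of 12 partners higher and 1 of 12 lower, beside 7.94% and 7.7% of all tested genes. IFNAR2, the receptor chain, had an estimate of 0.19 (standard error 0.22), and its groups overlapped. ARIH1, another ligase able to use ISG15, had an estimate of -0.27. The proteases that can also react with ISG15 had estimates of 0.02 (USP5), -0.05 (USP21), -0.17 (USP2), -0.18 (USP16), -0.25 (USP13) and -0.38 (USP14). SKP2, which promotes loss of USP18 protein, had an estimate of -0.08. Of the LFA-1 chains that form a receptor for secreted ISG15, ITGB2 had an estimate of 0.06 and ITGAL had 7 reads in each group and was not tested. Reads of interferon genes were few. Over 3 libraries each, IFNB1 summed to 4 reads under the knockdown label and 0 under the control label, and IFNL3 to 11 and 2. IFNE had 1 read in all, and IFNA1, IFNL1, IFNL2, IFNK and IFNG were not listed.

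Genes next to the members on the chromosome were compared. HES4 and AGRN on either side of ISG15 had estimates of 0.15 and 0.16. Beside UBA7, FAM212A had 0.21 (standard error 1.01, 0 to 21 reads per library) and TRAIP -0.29. Estimates were 0.03 for TIMM10 beside UBE2L6, -0.02 for TUBA8 beside USP18, 0.10 for PYURF beside HERC5 and 0.19 for ZNF74 beside USP41. The groups of all 8 overlapped, where 7.94% of all tested genes were separated higher and 7.7% lower. The other listed neighbours (SERPING1, GGTLC5P, RP11-10L7.1 and XXbac-B444P24.14) had at most 4 reads in a library and were not tested.

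The pattern of ISG15 over the 6 libraries was compared with that of 13217 genes of at least 1 CPM on average, as a description. The highest Pearson correlations of log2 CPM were with IFI6 (0.995), PMF1 (0.992), OAS1 (0.991), PPP1R14B (0.991) and MX1 (0.989). IFI6, OAS1 and MX1 are interferon-stimulated genes with log2 fold changes of 2.82, 1.90 and 1.89, whereas those of PMF1 and PPP1R14B were 0.28 and 0.20. With the mean standardised level of the 6 tested members, the highest were CLN3 (0.986), PVRIG (0.986), KTN1-AS1 (0.984), CEL (0.983) and AGAP4 (0.981). All points share libraries and depth, and with so few libraries high values arise for many genes.

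**Figure D4:**
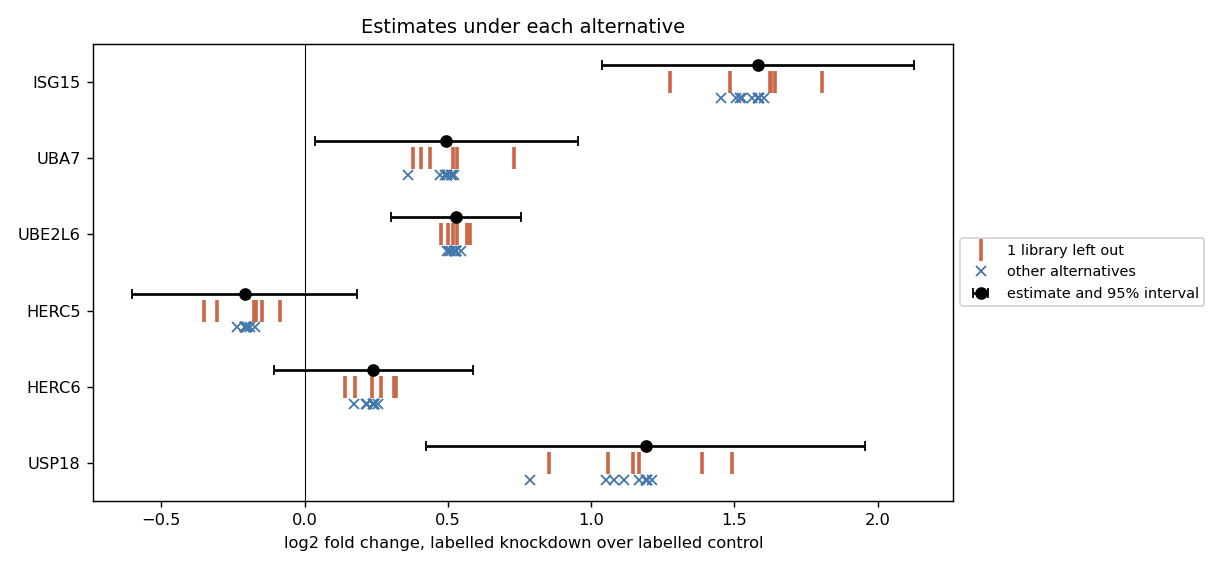
edgeR log2 fold change of each tested member with its 95% interval (black), with 1 library left out (bars) and under the other alternatives (crosses). The point estimate of each member keeps its side of 0 throughout, whereas the intervals of HERC5 and HERC6 cross 0, USP18 spans 0.79 to 1.49 and UBE2L6 spans 0.48 to 0.58.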

How the data were processed

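Polyadenylated RNA of 6 HK-2 libraries was sequenced by a directional protocol. Raw read counts per gene (26899 genes) were deposited by the authors without normalisation, as were FPKM values (26803 genes, rounded to 2 decimals). The submitters' processing notes name TopHat2, bcl2fastq, edgeR and GRCh38. The counting program, annotation release and treatment of multiply mapped reads: not given in the sources used here. The members, lists and rule for named genes (all members, fixed relatives, the 2 largest estimates of each list, nearest neighbours and the 5 most similar patterns) were chosen with earlier results of these data known.

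Counts were tested with edgeR 4.0.16 (R 4.3.3) by the quasi-likelihood test, with TMM scaling and default filtering (minimum count 10, total 15). Adjustment followed Benjamini and Hochberg over 15299 genes, two-sided, threshold 0.05. CPM are per reads in tested genes times the TMM factor. Correlations used a prior count of 2. Alternatives used DESeq2 1.42.0, limma 3.58.1 and the settings named in the closing section. The scripts were tested on simulated data. Coordinates are from GENCODE release 44 (GRCh38), in which 26125 IDs (97.12%) matched, and promoter sequences from RefSeq. Values of some listed genes are not reported here. Replicates differed beyond sampling noise (chi-square per degree of freedom 9.64 to 49.7).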

Additional observations from a re-analysis of the deposited data

How the results depend on the processing

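With edgeR as reported, 0 genes passed (1251 at an unadjusted p under 0.05), and 13 of 16 alternatives also gave 0. DESeq2 gave 32 of 15424 genes, ISG15 and UBE2L6 among them. edgeR without the low-count filter gave 165 of 26899 genes, with ISG15, UBE2L6 (adjusted p 0.0168) and USP18 (0.0012) among them. Leaving out 1 library gave 0 to 4, the 4 without knockdown replicate 2. The cause was not tested. Omitting single libraries moved the members' median from 0.4401 to 0.6242 (the latter without control replicate 3) and the count of separated members from 3 to 5. All 16 estimates of each tested member kept their sign, with ranges of 1.28 to 1.81 for ISG15, 0.36 to 0.73 for UBA7, 0.14 to 0.32 for HERC6 and -0.35 to -0.09 for HERC5. ANXA2 ranged from -0.1133 to -0.01746 and stayed outside the threshold. The median of the enzyme families stayed between -0.1206 and -0.04578. Deviations of same-numbered libraries correlated at -0.06, 0.12 and -0.20, and those of differently numbered libraries at -0.23 to 0.22. With 3 libraries per group, these values cannot tell whether the replicate numbers pair the libraries. With the replicate block the count was 0 (1076 at an unadjusted p under 0.05) and the members' median was 0.52. Fold changes on log2(FPKM + 1) understate low genes, 0.79 for USP18. USP18 and UBA7 rest on 86 to 389 reads per library, and 3 libraries per group limit the precision.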

Other observations

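The precursors of the other modifiers were set beside ISG15. Of 14 listed genes for ubiquitin and ubiquitin-like proteins, all 14 were tested and 0 passed an adjusted p of 0.05 in edgeR, with a median log2 fold change of -0.01. URM1, which encodes a modifier that also carries sulfur for tRNA thiolation, had an estimate of 0.19. UBB and UBD were chosen after their values were seen. UBB, a polyubiquitin gene, was at 1124, 1036 and 1186 CPM in knockdown replicates 1, 2 and 3 and at 1193, 1070 and 1159 CPM in control replicates 1, 2 and 3, so its groups overlapped (estimate -0.03, standard error 0.08). UBD, which encodes the cytokine-induced modifier FAT10, had an estimate of -0.01 (standard error 0.70) at 0.18 to 1.11 CPM per library.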
